A study of Mus musculus with 30 samples.

Results

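The mitochondrial ribosomal protein genes were followed in livers of male mice (strain C57BL16 in the labels) that had received 56Fe ions, a heavy charged particle of space radiation, or no irradiation. The members were the protein-coding genes with an Mrpl or Mrps symbol followed by a digit and a total of at least 300 counts over all libraries. They numbered 77, with 48 Mrpl and 29 Mrps genes, among 51826 gene identifiers in the count table. The irradiated groups received 0.2 Gy at 600 MeV/n and were sampled 30, 60, 120, 270 and 360 days later, here months 1, 2, 4, 9 and 12. Control groups without irradiation were sampled at the same months. Each of the 10 groups had 3 biological replicates, per the labels. The age of the animals was not given, and the tissue was frozen left liver lobe. All 6 hepatocyte markers examined were detected, with a summed level of 31600 to 85400 CPM per library. CPM is a gene's count scaled to the effective size of its library, except in marker sums, which use the plain library total.

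Mitochondrial ribosomes translate the few proteins encoded by mitochondrial DNA, all of them parts of the respiratory chain and the ATP synthase. Their RNA comes from mitochondrial DNA, but every protein of the ribosome is encoded in the nucleus, made in the cytosol and imported. Many of these proteins descend from bacterial ribosomal proteins, and others were gained in the mitochondrial lineage. Liver is rich in mitochondria, and members of this family are expressed in every cell type.

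By the structure of the mammalian ribosome, 50 members belong to the large subunit and 26 to the small subunit. The symbol does not always give the subunit, since the products of Mrps18a and Mrps30 sit in the large one. Mrps36 belongs to neither, as its product is a component of the 2-oxoglutarate dehydrogenase complex. It was also the member with the fewest counts, 1200 in total, and was followed by Mrps6 with 1740. Mrpl53 lay outside the threshold with 5 counts. Of the subunit members, 48 have a bacterial homologue and 28 are specific to mitochondria. The 77 genes lie on 17 chromosomes. All 77 passed the filter on low counts.

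Promoter sequences are shown for 5 members named in the results. Mrpl39 and Mrpl12 were lower in irradiated livers on average over the months. The irradiation effect of Mrpl50 and Mrps24 differed between months, and Mrpl33 had a profile unlike the rest. Each runs from 250 bases before to 50 bases after a gene start in RefSeq on GRCm38.p6, 5′ to 3′ on the strand of the gene. Capitals mark matches on either strand to GCGCATGC, the core bound by NRF1, to CGGAAG, the core bound by ETS factors such as GABPA, to AAGATGGC, the core bound by YY1, or to TATAAA.
Mrpl39 (chr16:84735195-84735494, minus strand): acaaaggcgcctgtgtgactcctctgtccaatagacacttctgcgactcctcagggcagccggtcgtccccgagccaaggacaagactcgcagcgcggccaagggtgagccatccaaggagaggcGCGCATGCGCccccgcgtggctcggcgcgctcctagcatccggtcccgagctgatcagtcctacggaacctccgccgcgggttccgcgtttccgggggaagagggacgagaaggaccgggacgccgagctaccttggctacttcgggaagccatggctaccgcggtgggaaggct
Mrpl12 (chr11:120484387-120484686, plus strand): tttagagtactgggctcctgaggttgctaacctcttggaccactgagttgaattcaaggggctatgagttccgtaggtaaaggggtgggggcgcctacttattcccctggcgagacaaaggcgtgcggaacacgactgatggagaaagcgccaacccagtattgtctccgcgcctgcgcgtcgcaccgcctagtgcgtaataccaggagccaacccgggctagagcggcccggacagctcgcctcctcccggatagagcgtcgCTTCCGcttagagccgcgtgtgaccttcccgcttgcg
Mrpl50 (chr4:49521034-49521333, minus strand): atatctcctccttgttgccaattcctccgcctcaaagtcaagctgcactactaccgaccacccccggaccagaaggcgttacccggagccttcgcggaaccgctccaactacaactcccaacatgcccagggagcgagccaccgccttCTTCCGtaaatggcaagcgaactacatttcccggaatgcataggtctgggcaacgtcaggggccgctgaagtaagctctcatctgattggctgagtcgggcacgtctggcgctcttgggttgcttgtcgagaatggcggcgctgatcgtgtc
Mrps24 (chr11:5707652-5707951, minus strand): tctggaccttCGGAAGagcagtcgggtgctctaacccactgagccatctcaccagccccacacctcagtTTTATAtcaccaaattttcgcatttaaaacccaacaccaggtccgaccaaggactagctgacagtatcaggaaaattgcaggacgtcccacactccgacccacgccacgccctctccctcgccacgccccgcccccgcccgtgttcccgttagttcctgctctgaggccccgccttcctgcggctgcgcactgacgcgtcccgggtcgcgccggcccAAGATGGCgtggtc
Mrpl33 (chr5:31613701-31614000, plus strand): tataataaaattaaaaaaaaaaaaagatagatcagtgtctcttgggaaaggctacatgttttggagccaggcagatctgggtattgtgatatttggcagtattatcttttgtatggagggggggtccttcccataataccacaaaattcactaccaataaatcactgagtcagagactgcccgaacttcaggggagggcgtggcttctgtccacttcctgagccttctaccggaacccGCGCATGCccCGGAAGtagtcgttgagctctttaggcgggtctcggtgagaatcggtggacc

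Promoter entries matched 68 of the 77 members by symbol. The ETS core CGGAAG was present in 55.9% of the 68 members, against 29.9% of the 12735 tested genes with an entry and 18.8% of all 27025 genes in the table. For the YY1 core AAGATGGC the shares were 17.6% of members, 4.51% of tested genes and 3.19% of all genes. The NRF1 core GCGCATGC was found in 11.8% of members, 5.1% of tested genes and 3.05% of all genes. TATAAA was found in 7.35% of members, 10.2% of tested genes and 15.7% of all genes. At least 1 of the NRF1, ETS and YY1 cores occurred in 46 members, or 67.6%, against 35.4% of tested genes. The median GC content was 58.0% in members and 59.3% in tested genes. The 3 cores do not contain one another, and the NRF1 core can overlap its own reverse complement, as in Mrpl39. These matches describe letters in a window and were not tested for binding.

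Libraries held 7995248 to 20215995 counts, and the members took 0.128% to 0.217% of the counts in irradiated and 0.133% to 0.209% in control libraries. A strong split by month ran through all libraries. Gm26917, a non-coding gene, took 4.79% to 7.57% of the counts in irradiated livers and 3.04% to 6.09% in control livers at months 1 and 2. At months 4, 9 and 12 its share was 0.46% to 1.04% in irradiated livers and 0.452% to 2.04% in control livers. Within months it also differed between arms, with a mean of 6.77% in irradiated and 4.10% in control livers at month 1, and 0.916% in irradiated and 0.490% in control livers at month 4. At month 12 the order was the other way, 0.870% in irradiated and 1.65% in control livers. Several libraries stood apart from their groups. The month 1 control replicate 3 had a Gm26917 share of 6.09%, against 3.04% and 3.17% in the other controls of that month. The month 9 irradiated replicate 1 had a summed member level of 2505.2 CPM, against 1905.7 and 1880.6 CPM in its group. In the month 1 control replicate 2 the mitochondrial rRNA gene mt-Rnr2 took 7.27% of the counts, against 0.53% and 2.16% in the other controls. At month 12, replicate 2 of each arm differed from its group over all genes, with a chi-square per gene of 104.9 and 100.5 in irradiated and 101.6 and 90.97 in control livers, against 22.5 in irradiated and 17.3 in control livers for the remaining pair. In bulk liver, fewer cells of a type and less RNA per cell cannot be told apart.

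The summed level of the 77 genes was lower in irradiated than in control livers in every library at months 2 and 4, and the arms overlapped at months 1, 9 and 12. At month 1 the sum was 997.7, 1177.0 and 1026.4 CPM in irradiated livers, against 1310.7, 1290.7 and 1001.7 CPM in control livers. The third control library was the one that reached the irradiated range. At month 2 the sum was 1275.7, 1242.7 and 1246.9 CPM in irradiated livers, against 1472.2, 1532.9 and 1388.1 CPM in control livers. At month 4 it was 1786.0, 1941.3 and 1878.4 CPM in irradiated livers, against 2109.0, 2270.0 and 2576.0 CPM in control livers. At month 9 it averaged 2097 ± 354 CPM in irradiated livers and 2137 ± 61.8 CPM in control livers (SD, n = 3 each). The month 12 means were 1677 ± 142 CPM in irradiated livers and 1624 ± 107 CPM in control livers (SD, n = 3 each). Large-subunit genes had 2.03 to 2.31 CPM for each CPM of small-subunit genes across the 10 group means. This ratio was 2.03 to 2.12 at months 1 and 2 and 2.19 to 2.31 later, so it moved with the split by month.

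**Figure D1:**
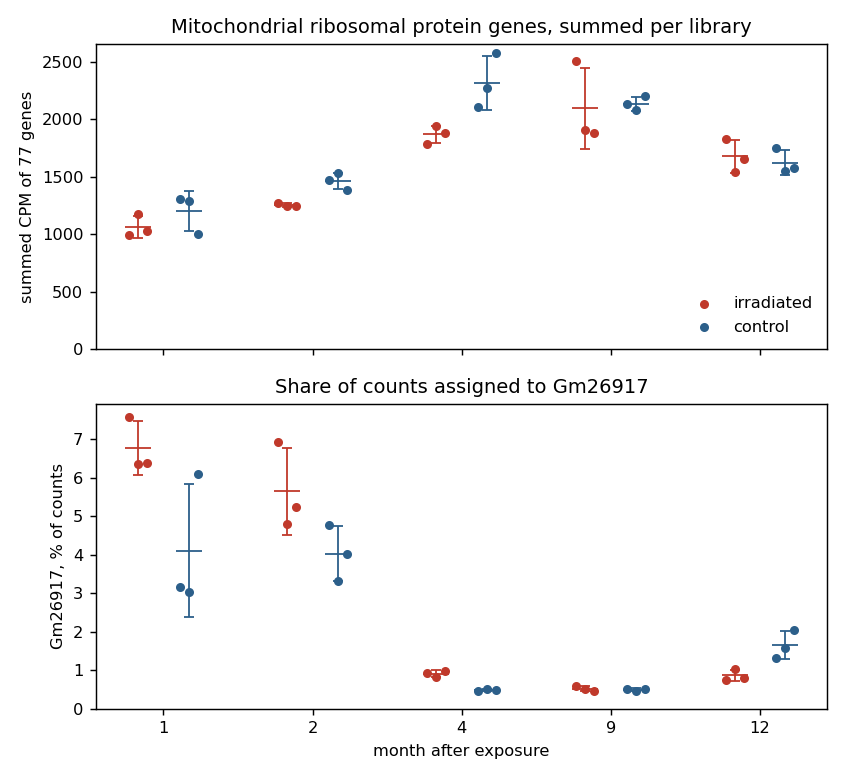
Summed CPM of the 77 genes (top) and the share of counts assigned to Gm26917 in percent (bottom) for each library by month, with irradiated libraries in red left of control libraries in blue. Points are libraries, the dash is the group mean and the bar its SD. Sums lie at or below 1532.9 CPM at months 1 and 2 and at or above 1545.3 CPM later. As a plain share of counts the 2 sets overlap, with up to 0.159% at months 1 and 2 and 0.139% or more later.

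Among the members, levels per length were read from CPM divided by the kilobases of annotated exon. On that scale Mrpl34, a small large-subunit protein, was highest with 32.97 CPM per kb, followed by Mrps21 with 31.5 and Mrps7 with 27.9 CPM per kb. Mrpl23 was lowest with 0.951 CPM per kb. The exon length covers all annotated transcripts, so long rare transcripts lower this value.

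At month 1 after irradiation, 2 members were lower in irradiated livers in edgeR's quasi-likelihood test at a Benjamini-Hochberg adjusted p under 0.05, and 0 were higher. Mrpl39, a mitochondria-specific protein of the large subunit, had 15.1, 18.3 and 16.3 CPM in irradiated livers, against 23.3, 23.9 and 21.1 CPM in control livers. The groups did not overlap, and the log2 fold change was -0.46 ± 0.11 (SE, adjusted p = 0.0108). Mrps9, the homologue of bacterial S9 in the head of the small subunit, had 17.3, 20.6 and 18.9 CPM in irradiated livers, against 26.9, 26.7 and 23.6 CPM in control livers. Its log2 fold change was -0.44 ± 0.11 (SE, adjusted p = 0.0210), again with no overlap. Next by p were Mrps35 (-0.42, adjusted p = 0.0575), Mrpl47 (-0.50, adjusted p = 0.0617) and Mrpl1 (-0.45, adjusted p = 0.0702), which did not pass. Of all genes tested, 3.11% were called lower and 1.49% higher at this month, so the members' share was near the background. Libraries did not overlap, with irradiated below control, for 8 members (9.92% of all genes) and with irradiated above control for 1 member (8.71% of all genes). The median log2 fold change was -0.17 over the members and -0.03 over all genes tested, and 61 of 77 estimates were negative (53.6% of all genes). With upper quartile factors 1 member was called higher and 1 lower. Without control replicate 3, 14 members were called lower. Leaving out control replicate 1 or 2, or irradiated replicate 1 or 3, left 0 called, as did the Gm26917 share as a covariate. Here and below this covariate was the log2 CPM of Gm26917, not its percent of counts. Hepatocyte markers summed to 31600 to 55200 CPM in irradiated and 54400 to 58000 CPM in control livers at this month. The 4 cholangiocyte markers summed to 10.5 to 14.9 CPM in irradiated and 4.13 to 5.86 CPM in control livers, with Sox9 called higher, and the 4 erythroid markers to 68.3 to 87.5 CPM in irradiated and 89.9 to 97.5 CPM in control livers. The part of these markers in the result was not tested.

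At month 2, 2 members were called lower and 0 higher. Mrpl34, the homologue of bacterial L34, had 9.7, 10.8 and 10.2 CPM in irradiated livers, against 18.3, 16.6 and 15.6 CPM in control livers. This was the member with the largest difference of the month, at -0.72 ± 0.18 in log2 units (SE, adjusted p = 0.0284). Mrpl39 was again lower, with 15.8, 16.4 and 16.9 CPM in irradiated livers, against 19.7, 21.9 and 21.8 CPM in control livers. Its log2 fold change was -0.37 ± 0.10 (SE, adjusted p = 0.0417). Next by p were Mrpl50 (-0.45, adjusted p = 0.0560), Mrpl51 (-0.52, adjusted p = 0.0599) and Mrpl2 (-0.47, adjusted p = 0.0642), which did not pass. Over all genes tested, 1.8% were called lower and 2.57% higher, so the members' share of calls was near the background. For 39 members all irradiated libraries lay below all control libraries, against 18.6% of all genes, and for 2 members they lay above, against 15.6% of all genes. The median log2 fold change was -0.25 over the members and -0.02 over all genes, with 67 of 77 estimates negative (51.8% of all genes). Both calls ended when any 1 of the 6 libraries of this month was left out, and with the Gm26917 share as a covariate. Malat1, a nuclear non-coding RNA, was called higher and took 0.912% to 1.09% of the counts in irradiated and 0.47% to 0.592% in control livers. Erythroid markers summed to 76.2 to 87.4 CPM in irradiated and 103 to 135 CPM in control livers, and sinusoidal endothelium markers to 262 to 275 CPM in irradiated and 197 to 223 CPM in control livers. For cholangiocyte markers the sums were 7.82 to 9.14 CPM in irradiated and 10.2 to 13.5 CPM in control livers, and for neutrophil markers 0.658 to 1.03 CPM in irradiated and 1.57 to 34.6 CPM in control livers. The part of these genes in the result was not tested.

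At month 4, 6 members were called lower and 0 higher, against 1.77% of all genes called lower and 1.82% called higher. They were Mrps31, Mrps22 and Mrps23, which are mitochondria-specific proteins of the small subunit, Mrps17, the homologue of bacterial S17, Mrpl50, a mitochondria-specific protein of the large subunit, and Mrpl12, the homologue of the bacterial stalk protein L7/L12 that recruits translation factors to the ribosome. For all 6, each irradiated library lay below each control library.

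Mrps31 had 35.4, 34.1 and 36.4 CPM in irradiated livers, against 48.0, 46.6 and 52.0 CPM in control livers. The log2 fold change was -0.47 ± 0.12 (SE, adjusted p = 0.0273). Mrpl50 had 44.8, 48.2 and 44.0 CPM in irradiated livers, against 59.0, 62.3 and 74.4 CPM in control livers. The log2 fold change was -0.51 ± 0.14 (SE, adjusted p = 0.0335). In both genes control replicate 3 was the highest library. Mrpl12, whose promoter above holds an ETS core just after the start, had 25.1, 27.3 and 26.6 CPM in irradiated livers, against 32.4, 42.2 and 43.4 CPM in control livers. The log2 fold change was -0.58 ± 0.16 (SE, adjusted p = 0.0386), the largest of the 6. Mrps22 averaged 23.7 ± 1.45 CPM in irradiated and 33.03 ± 5.09 CPM in control livers (adjusted p = 0.0389). For Mrps17 the means were 40.3 ± 0.546 CPM in irradiated and 57.0 ± 5.11 CPM in control livers (adjusted p = 0.0437). Mrps23 had means of 15.5 ± 0.655 CPM in irradiated and 22.7 ± 4.04 CPM in control livers (SD, n = 3 each, adjusted p = 0.0490), and with a replicate block its adjusted p was 0.0525.

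The difference at month 4 was wide across the family. For 47 members the irradiated libraries lay wholly below the control libraries, against 15.9% of all genes, and for 0 members above, against 14.3% of all genes. The median log2 fold change was -0.30 over the members and 0.04 over all genes tested, and 72 of 77 estimates were negative (46.2% of all genes). Large-subunit genes had a median of -0.31 and small-subunit genes of -0.30. Genes with a bacterial homologue had a median of -0.31 and mitochondria-specific genes of -0.30. Among the 45 members whose exons overlap no other gene, 43 estimates were negative and the median was -0.29. Of the 6 called, Mrpl12 alone shares exons with another gene, the lincRNA Gm16755 on the opposite strand.

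These calls rest on few libraries. Without control replicate 3, or without any 1 of the irradiated libraries, 0 members were called at month 4, and without control replicate 2, 1 was called. With the Gm26917 share as a covariate 0 were called, and the median log2 fold change was -0.19 with 71 of 77 estimates negative. The share was 0.827% to 0.985% in irradiated and 0.469% to 0.508% in control livers at this month, so it does not overlap between arms. Erythroid markers, 4 genes, summed to 193 to 232 CPM in irradiated and 279 to 345 CPM in control livers, and their part in the result was not tested. DESeq2 called 18 members lower and limma's voom 24. The share of all genes called by these methods is not given here, so these counts have no background beside them.

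**Figure D2:**
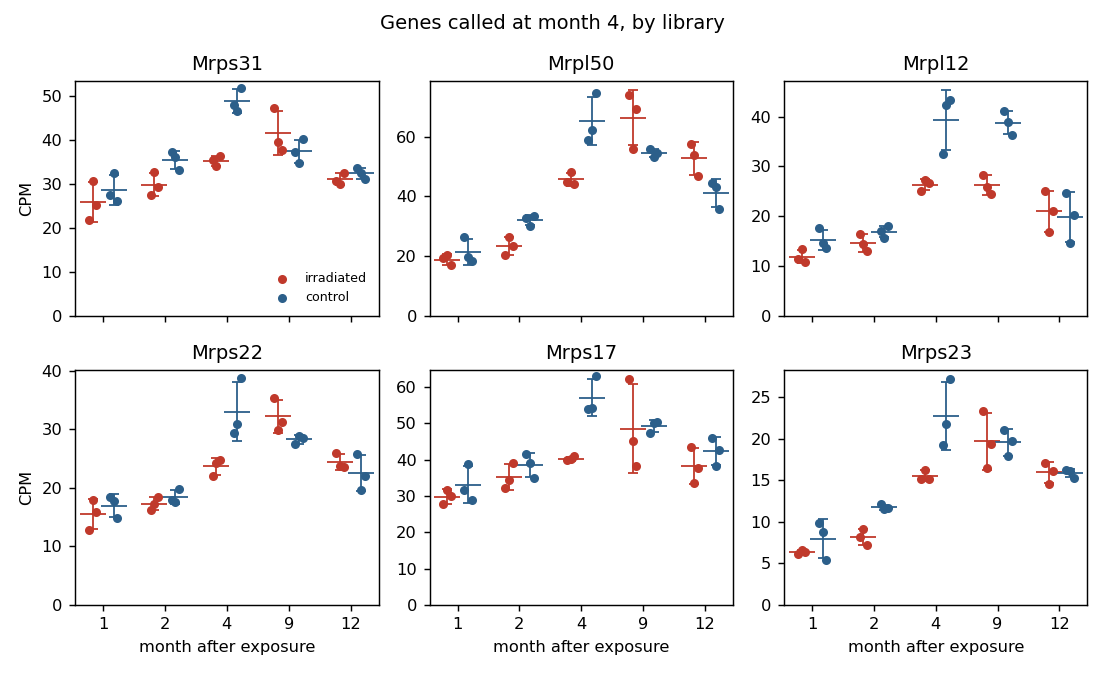
CPM of the 6 genes called at month 4 in every library, by month after exposure, with irradiated libraries in red left of control libraries in blue. Points are libraries, dashes group means and bars SD; at month 4 no irradiated library reaches a control library in any of the 6 genes.

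At month 9, 0 members were called in either direction by edgeR, with 4 at an unadjusted p under 0.05, 1 called by DESeq2 and 2 by limma's voom. Of all genes tested, 0.498% were called lower and 1.16% higher. The member nearest to the threshold was Mrpl12, with 28.3, 25.9 and 24.4 CPM in irradiated livers, against 41.0, 38.9 and 36.4 CPM in control livers. The libraries did not overlap, and the log2 fold change was -0.57 ± 0.16 (SE, adjusted p = 0.0585). Next by p were Mrps24 (-0.39), Mrpl50 (0.29), Mrps12 (-0.30) and Mrps34 (-0.41), with adjusted p of 0.164 to 0.358. Non-overlap with irradiated below control was seen in 6 members (8.77% of all genes), and above in 2 members (9.4% of all genes). The median log2 fold change over the members was -0.04, with 46 of 77 estimates negative (49.5% of all genes).

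At month 12, 0 members were called by edgeR, DESeq2 or limma's voom, with 9 at an unadjusted p under 0.05 in edgeR. Over all genes tested 0% were called lower and 0% higher, so no gene passed at this month. The smallest p-values were those of Mrpl38 (-0.40), Mrpl18 (0.39), Mrpl41 (0.45), Mrpl9 (0.42) and Mrpl50 (0.36), with adjusted p of 0.220 to 0.259. The irradiated libraries lay below the control libraries in 8 members (7.78% of all genes) and above them in 10 members (7.74% of all genes). The median log2 fold change over the members was 0.04, and 32 of 77 estimates were negative (52.5% of all genes).

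**Figure D3:**
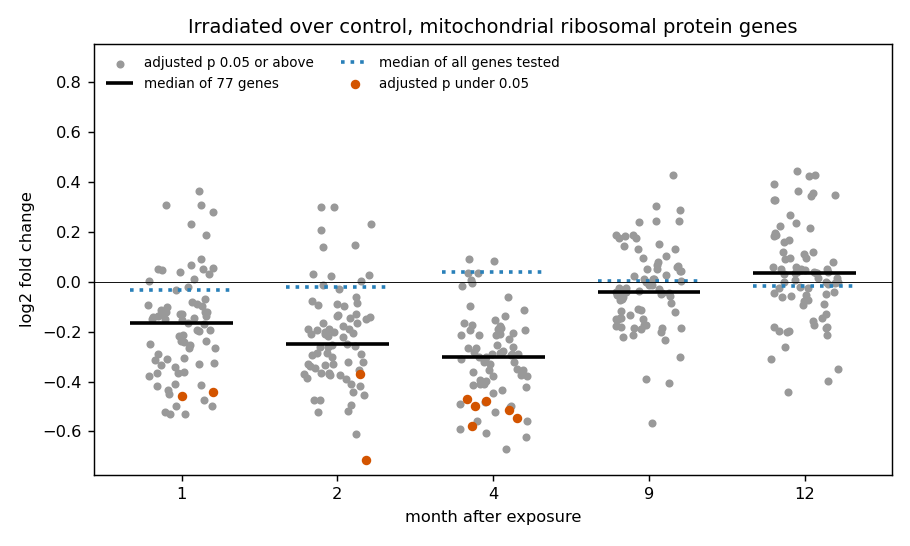
Log2 fold change of irradiated over control livers for each of the 77 genes at months 1, 2, 4, 9 and 12. Orange points passed an adjusted p of 0.05, black lines are the medians of the 77 genes and dotted blue lines the medians of all genes tested; the black lines lie at -0.17, -0.25, -0.30, -0.04 and 0.04.

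For the mean over the 5 months, 6 members were called lower in irradiated livers and 0 called higher, against 2.81% of all genes called lower and 2.44% called higher. Mrpl39 was lower by a mean log2 difference of -0.23 ± 0.05 (SE, adjusted p = 0.00465), with monthly values of -0.46, -0.37, -0.28, -0.09 and 0.04. Its irradiated libraries lay wholly below control at months 1, 2 and 4. It was the only member of the 77 to do so at all 3. At the single months the share of all genes was 9.92%, 18.6% and 15.9%, and the share for all 3 was not computed. For Mrpl12 the mean was -0.33 ± 0.07 (SE, adjusted p = 0.00946). Mrpl10, the protein that anchors the Mrpl12 stalk, had a mean of -0.24 ± 0.06 (SE, adjusted p = 0.0293). The others were Mrps23 at -0.28, Mrpl48 at -0.24 and Mrpl30, the homologue of bacterial L30, at -0.28.

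Estimates were negative at months 1, 2 and 4 in 54 members, negative at all 5 months in 7, and positive at months 1, 2 and 4 in 2. The shares of all genes with these joint signs were not computed. Members were correlated across libraries, so such counts are not 77 separate observations. The mean over the months was negative in 75 of 77 members (50.2% of all genes), with a median of -0.15 against -0.002 for all genes. When the months were split by the Gm26917 share, 3 members were called in months 1 and 2 and 0 in months 4, 9 and 12. The count was 25 without control replicate 3 of month 1, 15 without irradiated replicate 1 of month 9, 12 without irradiated replicate 1 of month 12 and 10 without control replicate 2 of month 12. It was 3 without control replicate 1 or irradiated replicate 1 of month 1, and 2 without control replicate 2 of month 1, control replicate 3 of month 4 or irradiated replicate 2 of month 12. With the Gm26917 share as a covariate it was 0, with Mrpl39 at an adjusted p of 0.0534. Of the 6 members, Mrpl48 shares exons with Rab6a on the opposite strand, which had 26830 counts in total against 7321 of its own. In the same mean over months Malat1 was called higher, and the erythroid genes Hba-a1 and Hbb-bs and the stellate cell genes Dcn and Colec11 were called lower, and their part in the result was not tested.

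The irradiation effect differed between months in 6 of 77 members by the interaction F-test, a smaller share than the 11% of all genes. They were Mrpl50, Mrpl20, Mrpl51, Mrps14, Mrpl9 and Mrps24. Mrpl50 had the smallest adjusted p, 0.00613. Its log2 fold changes were -0.19, -0.45, -0.51, 0.29 and 0.36 from month 1 to month 12. At month 12 it had 57.6, 53.7 and 46.8 CPM in irradiated livers, against 44.5, 43.2 and 35.8 CPM in control livers, so irradiated libraries were above control libraries where they had been below at month 4. Mrps24, the homologue of bacterial S3 at the entry of the mRNA channel, had log2 fold changes of -0.13, -0.35, -0.41, -0.39 and 0.35. In Mrpl20, Mrpl51 and Mrps14 the estimates were likewise negative at months 1, 2 and 4 and positive at months 9 and 12. Mrpl9 had a positive estimate at month 12 alone, 0.42. With the Gm26917 share as a covariate 0 members were called.

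Several members mark set places in the ribosome. Mrps12 had monthly log2 fold changes of 0.05, -0.37, -0.27, -0.30 and 0.09. For Mrps5, the homologue of bacterial S5, they were -0.19, -0.03, -0.31, -0.20 and 0.05, and for Mrpl41, a mitochondria-specific large-subunit protein, -0.34, -0.26, -0.38, -0.04 and 0.45. Mrps30 and Mrps18a, which sit in the large subunit, had -0.53, -0.44, -0.56, 0.08 and 0.05 and, in Mrps18a, -0.09, -0.22, -0.26, -0.05 and -0.02. None of these 5 genes was called at any of the 5 months.

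Within each arm the levels changed over the months in most members. The F-test across months called 72 members in irradiated livers, against 59% of all genes, and 68 in control livers, against 58.3% of all genes. The smallest adjusted p-values were 4.32e-11 for Mrpl50 in irradiated livers and 6.16e-11 for Mrps24 in control livers. These tests cross the split in the Gm26917 share, and the 2 cannot be told apart over the whole course. With the share as a covariate 0 members were called in irradiated and 9 in control livers. Within months 1 and 2, 0 were called in irradiated and 9 in control livers. Within months 4, 9 and 12, 0 were called in irradiated and 41 in control livers.

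Averaged over both arms, 73 of 77 members were higher in the 18 libraries of months 4, 9 and 12 than in the 12 libraries of months 1 and 2. The median ratio of later to earlier means was 1.57, against 0.924 for all genes tested. These levels use effective library sizes. As a plain share of counts, the summed members overlapped between the sets, with up to 0.159% in the earlier and 0.139% or more in the later libraries. In 17 members the 2 sets of libraries did not overlap, with the later ones higher, against 7.21% of all genes. Marker levels of other cell types also moved with the split: the 4 stellate cell markers summed to 293 to 472 CPM in the later and 222 to 277 CPM in the earlier libraries, and the 4 erythroid markers to 94.8 to 345 CPM in the later and 68.3 to 135 CPM in the earlier ones, and of these 2 sums the erythroid one overlapped. Their part in the result was not tested. The ratio was 2 or more in 13 members. Mrps24 had 18.8 to 50.6 CPM in the later libraries and 8.84 to 18.4 CPM in the earlier ones, a ratio of 2.91. Mrps18c, a homologue of bacterial S18, had 5.06 to 14.5 CPM in the later libraries and 2.31 to 4.00 CPM in the earlier ones, a ratio of 2.90. Mrps24 shares exons with Urgcp and Mrps18c with Gm43511, each on the same strand, which can affect their counts. Mrpl50, whose exons overlap no other gene, had 35.8 to 74.4 CPM in the later libraries and 16.9 to 33.2 CPM in the earlier ones.

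The members moved together across libraries. The median Pearson correlation between pairs of members was 0.82 over the 30 libraries, 0.638 over months 1 and 2, 0.72 over months 4, 9 and 12, and 0.495 over deviations from group means. These correlations share library depth and composition and are given as a description. Against the mean of the other members, 49 genes had a correlation above 0.9, with Mrpl11 the highest at 0.985, and 67 had one above 0.7.

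A few members ran differently. Mrps34 had a correlation of -0.41 with the mean of the others, Mrpl33 of -0.36, Mrps15 of 0.14 and Mrpl18 of 0.31. Over deviations from group means the same correlations were 0.60, 0.36, 0.74 and 0.71, in the same order of genes. Mrps34, a mitochondria-specific small-subunit protein, had 5.3, 7.0 and 5.6 CPM in irradiated and 4.2, 6.9 and 6.3 CPM in control livers at month 4. At month 2 it had 12.4, 7.9 and 8.2 CPM in irradiated and 8.0, 8.5 and 6.7 CPM in control livers. Its means were higher at the earlier month in both arms, but the control libraries of these months overlapped. The F-test across months called Mrps34 in irradiated livers (adjusted p = 0.00108) and not in control livers (adjusted p = 0.487). Mrpl33, the homologue of bacterial L33, had 13.2, 11.5 and 13.02 CPM in irradiated and 11.3, 12.2 and 13.3 CPM in control livers at month 4. At month 2 it had 13.5 to 16.3 CPM in irradiated and at most 14 CPM in control livers. By the same F-test it was called in irradiated livers (adjusted p = 0.0475) and not in control livers (adjusted p = 0.653). Its promoter above holds an NRF1 and an ETS core next to the start. Mrps34 shares exons with Mapk8ip3 and Mrpl18 with Tcp1, both on the opposite strand and with more counts, 15561 and 62554 in total. These neighbours can affect the counts of Mrps34 and Mrpl18, in a direction that is not known, as the strand setting of the counting was not stated.

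**Figure D4:**
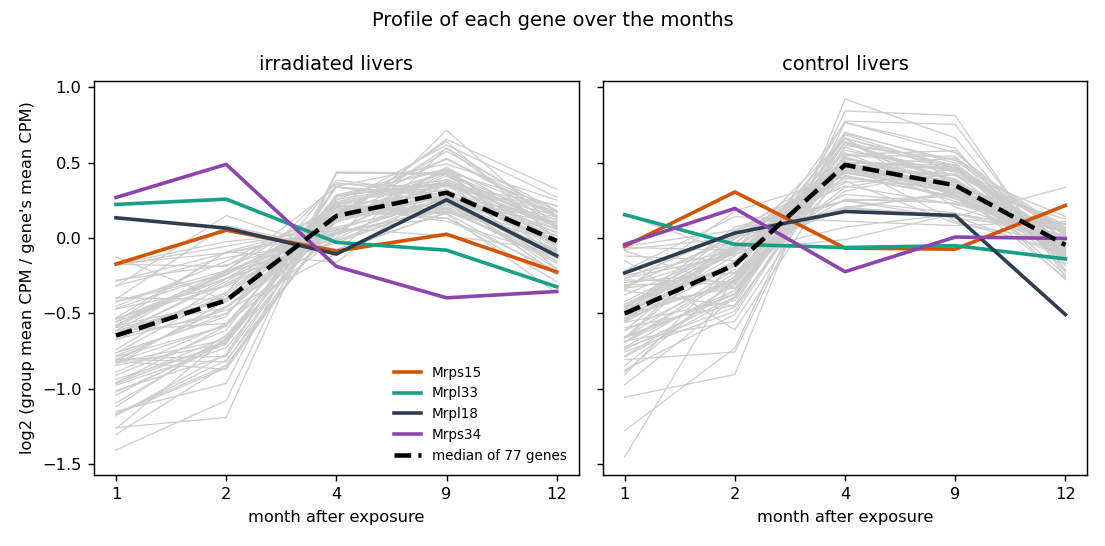
Group mean CPM of each gene relative to its own mean over all libraries, on a log2 scale, by month, for irradiated livers (left) and control livers (right). Grey lines are genes, the dashed line is the median of the 77, and the 4 genes least correlated with the rest, Mrps34, Mrpl33, Mrps15 and Mrpl18, are coloured; most grey lines lie lower at months 1 and 2 than later.

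Steps between neighbouring months avoid the split when taken within months 1 and 2 or within months 4, 9 and 12. In irradiated livers 0 members were called between month 2 and month 1 by edgeR, with 20 at an unadjusted p under 0.05, 0 called by DESeq2 and 1 by limma's voom. The smallest p was that of Mrps10 (log2 fold change 0.47, adjusted p = 0.200). Of all genes 0.00508% were called higher and 0% lower. In control livers 10 members were higher at month 2 than at month 1 and 0 were lower, against 5.75% of all genes called higher and 4.05% called lower. With upper quartile factors, which lower the median of all genes by 0.12, 8 were higher and 2 lower. With the Gm26917 share as a covariate 15 were higher. Of the genes examined as markers, Hnf4a and Tat of hepatocytes, Sox9 and Krt19 of cholangiocytes and Lyve1 of sinusoidal endothelium were also called higher in this step and Ms4a1 of lymphocytes lower. Their part in the result was not tested.

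Mrpl34 changed most in this step, with 18.3, 16.6 and 15.6 CPM at month 2, against 8.1, 7.3 and 6.6 CPM at month 1 in control livers. The log2 fold change was 1.20 ± 0.19 (SE, adjusted p = 0.000264). Mrpl34 was also among the members called lower in irradiated livers at month 2, a comparison that uses the same month 2 control libraries. In irradiated livers it had 9.7, 10.8 and 10.2 CPM at month 2. In irradiated livers at month 1 it had 6.8, 12.8 and 7.4 CPM, a range that overlaps month 2. Next by size were Mrpl52, a mitochondria-specific large-subunit protein (log2 fold change 0.68), Mrps12, the homologue of the decoding-centre protein S12 (0.63), Mrpl44 (0.61), Mrps27 (0.60), Mrpl50 (0.57), Mrpl36, the homologue of bacterial L36 (0.55), and Mrps23 (0.55). Mrpl44 shares exons with Wdfy1 and Mrpl36 with Ndufs6, both on the opposite strand and with more counts, 18032 and 14981 in total. The count was 1 without control replicate 3 of month 1, 17 without control replicate 1 of month 1, and 3 without control replicate 1 or 2 of month 2.

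From month 4 to month 9, 2 members were higher at month 9 in irradiated livers and 0 lower. Of all genes, 2.38% were called higher and 1.36% lower, so the members' share was near the background. Mrpl50 had 73.9, 55.9 and 69.1 CPM at month 9, against 44.8, 48.2 and 44.0 CPM at month 4 (log2 fold change 0.54 ± 0.14, SE, adjusted p = 0.0236). Mrpl47, the homologue of bacterial L29, averaged 15.1 ± 2.48 CPM at month 9 and 10.4 ± 0.367 CPM at month 4 (SD, n = 3 each, adjusted p = 0.0408). Both calls rest on the libraries used: 6 members were called without irradiated replicate 2 of month 9, and 0 without any other 1 of these libraries or with the Gm26917 share as a covariate. Mrpl47 shares exons with Ndufb5 on the opposite strand, which had 20114 counts against 4835 of its own. Erythroid markers summed to 167 to 187 CPM at month 9 and 193 to 232 CPM at month 4 in irradiated livers, and their part in the result was not tested. In control livers 0 members were called by edgeR, DESeq2 or limma's voom, with 2 at an unadjusted p under 0.05 in edgeR, Mrps31 (-0.38) and Mrps33 (-0.46), and 0% of all genes were called higher and 0% lower.

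From month 9 to month 12, 29 members were lower at month 12 in control livers and 0 higher, against 5.78% of all genes called lower and 10.1% called higher. Of the 29, 21 were large-subunit and 8 small-subunit genes. Mrps24 had 23.99, 23.4 and 18.8 CPM at month 12, against 45.8, 44.2 and 49.4 CPM at month 9, which was -1.07 ± 0.15 as a log2 fold change (SE, adjusted p = 2.91e-05). Mrpl12 had 24.6, 14.6 and 20.2 CPM at month 12, against 41.0, 38.9 and 36.4 CPM at month 9, and the difference was -0.97 ± 0.16 in log2 units (SE, adjusted p = 0.00016). The 2 months did not overlap in either gene. The others by size were Mrps18c at -0.87, Mrpl42 at -0.82, Mrpl46 at -0.73, Mrpl9 at -0.72, Mrpl43 at -0.67 and Mrpl41 at -0.67. On the opposite strand, Mrpl46 shares exons with Mrps11, Mrpl43 with Twnk, which had 9899 counts against 9950 of its own, Mrpl9 with Oaz3, which had 150 counts, and Mrpl12 with Gm16755.

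In irradiated livers 0 members were called between month 12 and month 9 by edgeR, with 44 at an unadjusted p under 0.05, 5 called lower by DESeq2 and 0 by limma's voom. The nearest were Mrpl47 (-0.58, adjusted p = 0.0729) and Mrpl42 (-0.65, adjusted p = 0.0940). Of all genes tested there, 0.0711% were called higher and 0.229% lower. The members' median log2 fold change was -0.33 in irradiated livers, with 76 of 77 estimates negative (45.6% of all genes). In control livers it was -0.39, with 74 of 77 negative (47.3% of all genes). Both arms thus had estimates in the same direction, and the difference between the arms in this step was not tested on its own. Mrps24 had 30.9, 27.0 and 26.2 CPM at month 12, against 47.3, 29.5 and 29.6 CPM at month 9 in irradiated livers. The higher month 9 value came from replicate 1, a library that stood apart. Without irradiated replicate 2 of month 9, 12 members were called lower in irradiated livers, and without irradiated replicate 1 of month 12, 4 were.

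The Gm26917 share moved with this step, with means of 0.870% at month 12 and 0.520% at month 9 in irradiated livers, and 1.65% at month 12 and 0.50% at month 9 in control livers. In control livers Malat1 and Neat1 were also called higher at month 12, and the stellate cell genes Reln and Colec11 and the endothelial gene Clec4g lower. Sinusoidal endothelium markers summed to 184 to 207 CPM at month 12 and 220 to 257 CPM at month 9, and cholangiocyte markers to 8.34 to 17.2 CPM at month 12 and 5.01 to 6.08 CPM at month 9, with Sox9 called higher. The part of these genes in the result was not tested. As a covariate the Gm26917 share left 0 of the 29 called, with a median log2 fold change of -0.18. The count in control livers was 16 without control replicate 3 of month 9 and 19 without control replicate 1 of month 9 or replicate 2 of month 12.

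**Figure D5:**
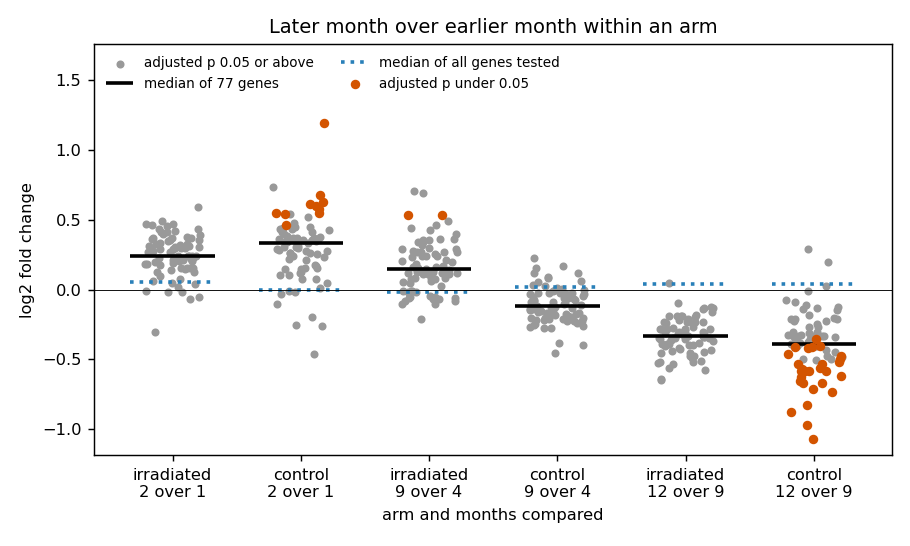
Log2 fold change of the later over the earlier month for each of the 77 genes, for months 2 over 1, 9 over 4 and 12 over 9, in irradiated livers left of control livers. Orange points passed an adjusted p of 0.05, black lines are medians of the 77 genes and dotted blue lines medians of all genes tested; for month 12 over 9 the black lines lie at -0.33 in irradiated and -0.39 in control livers.

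Other proteins of the mitochondrial ribosome carry names outside the Mrpl and Mrps series. Of 5 such genes, Ptcd3, a small-subunit protein, was lower in irradiated livers at month 1 (log2 fold change -0.47, adjusted p = 0.0367), and Gadd45gip1, a large-subunit protein, was lower at month 9 (-0.78, adjusted p = 0.0168). Chchd1, a small-subunit protein, was lower at month 12 than at month 9 in control livers (-0.74, adjusted p = 0.0166). All 5 had negative estimates at month 4, and 0 were called there.

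The translation factors that work with this ribosome, 11 genes, had 0 calls between irradiated and control livers at any of the 5 months, and 11 of 11 estimates were negative at month 4 with a median of -0.28. Of these, Mtrf1, Mtif2 and Tsfm were lower at month 12 than at month 9 in control livers. Of all genes tested, 3.11%, 1.8% and 1.77% were called lower in irradiated livers at months 1, 2 and 4. Among 26 genes of ribosome assembly and rRNA modification, 1 was called lower at each of these months, a share near that background. These were Gtpbp10, a GTPase of large-subunit assembly (-0.58, adjusted p = 0.0144), Ddx28, an RNA helicase of large-subunit assembly (-0.70, adjusted p = 0.0151), and Fastkd2, an RNA-binding protein of RNA granules (-0.39, adjusted p = 0.0492). Ddx28 was also lower over the months on average (-0.39, adjusted p = 0.00227). Among the 20 genes that charge mitochondrial tRNAs, Cars2 was higher at month 1 (0.62, adjusted p = 0.0257), and 0 were called at the other 4 months. In the mean over months Fars2 was called lower (-0.23, adjusted p = 0.0189).

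Other ribosome and respiratory genes had estimates in the same direction at month 4. The 83 cytosolic ribosomal protein genes tested had a median log2 fold change of -0.31 with 2 called lower, and the 36 nuclear genes of complex I a median of -0.28 with 0 called. At month 2 the cytosolic ribosomal protein genes had a median of -0.61 with 25 called lower, against -0.25 and 2 in the mitochondrial family. Of all genes tested, 1.8% were called lower at that month. Of the mitochondrially encoded protein genes, whose mRNAs this ribosome reads, 7 passed the filter on low counts. Their median was 0.91 at month 4 with 0 called. At month 1 it was 1.23 with 6 called higher, against 1.49% of all genes called higher. Any such genes that did not pass are not covered. No difference between these lists was tested.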

How the data were processed

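RNA of liver slices was depleted of ribosomal RNA and sequenced as paired reads of 50 bases, per the labels. Reads were aligned to GRCm38 with STAR 2.5.3a, per the submitters' processing notes, and the deposited values are raw read counts per gene from its gene-count mode on Gencode M14, per the series' design text. The strand column kept was not given in the sources used here. The series text gives more reads per sample than the table totals, which served as depth, and the gap was left unresolved. Gencode M21 supplied gene symbols and positions.

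The test was the robust quasi-likelihood test of edgeR 4.0.16 (R 4.3.3) with TMM factors and 1 coefficient per group, on genes kept by filterByExpr (at least 10 counts in enough libraries, 15 overall). P-values were adjusted over all 19685 genes tested; called means an adjusted p under 0.05. CPM use TMM library sizes, except sums of cell type markers, which use plain library totals and so are on another scale. The fits were checked on simulated counts. Alternatives were RLE and upper quartile factors, no filter, at least 1 CPM in 3 libraries, DESeq2 1.42.0 and limma 3.58.1 voom with sample weights. Others were a replicate block, the Gm26917 share as a covariate (entered as its centred log2 CPM) and each month alone. The last were months on each side of the Gm26917 split, and leaving out each library.

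Replicate numbers in the labels are shared between arms. The deviations of same-numbered livers from their group means correlated above 0.1 for all 3 numbers at month 4 (0.139, 0.103 and 0.13). The same held at month 12 (0.226, 0.403 and 0.228). A pairing at these months is an assumption, since the labels do not say what equal numbers mark, and the main test was unpaired. Of 30 replicate pairs, 0 held identical values. Members named are those called, up to 8 per direction by size, where fewer than 5 passed those with the smallest p, 6 members in every irradiation comparison (Mrpl12, Mrpl41, Mrps12, Mrps5, Mrps30 and Mrps18a), and those least and most like the rest. The members and gene lists were chosen with earlier results of these data known. Promoters came from RefSeq on GRCm38.p6.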

Additional observations from a re-analysis of the deposited data

Results flagged for a closer look

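A difference of the irradiation effect between months, by the interaction F-test over the 5 months, picked out 6 of 77 members. This is a smaller share than the 11% of all genes called. Adjusted p-values from edgeR were 0.00613 for Mrpl50, 0.0323 for Mrpl20, 0.0380 for Mrpl51, 0.0386 for Mrps14, 0.0453 for Mrpl9 and 0.0499 for Mrps24. In all 6 the estimates were negative at months 1, 2 and 4 and positive at month 12. Over the alternatives the adjusted p of Mrpl50 ranged between 3.27e-05 and 0.472. Mrpl20, Mrpl51 and Mrps14 had their highest library in irradiated replicate 1 of month 9, with 50.1, 66.3 and 49.7 CPM, the library with the highest summed member level of its group. Without it, 7 members were called. Without control replicate 3 of month 1 there were 16, without irradiated replicate 2 of month 9, 13, and without irradiated replicate 2 of month 12, 12. The count was 1 to 3 without any single library of month 4, any control library of month 9, control replicates 2 or 3 of months 2 and 12, control replicate 1 of month 1, or irradiated replicates 1 or 3 of months 2 and 12.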

How the results depend on the processing

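Every alternative below recounts the members called. Here and above, the share of all genes called under an alternative is not given. A changed count is therefore not read as a result about the members. At month 1 the count of 2 became 11 with limma's voom and 0 with no filter on low counts, with the Gm26917 share as a covariate or with the 6 libraries of the month alone. At month 2 the count of 2 became 1 with RLE or upper quartile factors, 5 with DESeq2, 13 with voom, 0 with the Gm26917 covariate and 9 with the month alone. At month 4 the count of 6 became 10 with RLE factors or a filter of at least 1 CPM in 3 libraries, 18 with DESeq2, 24 with voom, 19 with the month alone and 0 with no filter or with the Gm26917 covariate. At month 9 the count of 0 became 1 with upper quartile factors, the 1 CPM filter or DESeq2, and 2 with voom. The mean over months, 6, became 3 with upper quartile factors or no filter, 10 with DESeq2, 32 with voom, 3 within months 1 and 2, and 0 within months 4, 9 and 12 or with the Gm26917 covariate. The interaction count of 6 became 11 with RLE factors or voom, 15 with the 1 CPM filter, 17 with DESeq2, 1 within months 1 and 2 and 0 with the Gm26917 covariate. Changes over months, 72 in irradiated livers, became 0 within months 1 and 2, within months 4, 9 and 12, or with the covariate; the 68 in control livers became 9, 41 and 9 in that order. Month 2 over 1 in irradiated livers, 0, became 1 with voom. Month 9 over 4 in irradiated livers, 2, became 0 with no filter or the covariate. Month 12 over 9 in irradiated livers, 0, became 1 with no filter and 5 with DESeq2; in control livers 29 became 12 with no filter and 0 with the covariate, where the estimate of Mrpl9 was positive (adjusted p = 0.996). The causes were not tested.

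With a replicate block the counts were 3, 6, 8, 1 and 0 at months 1, 2, 4, 9 and 12, and 12 for the mean over months. The labels do not say what equal numbers mark, so a pairing at months 4 and 12 is an assumption. Of the calls at these months, the block ended that of Mrps23. Of 15 same-numbered pairs, 9 had deviations correlated above 0.1. Leaving out 1 library gave 0 to 14 members for month 1, 0 to 6 for month 4, 2 to 25 for the mean, and 0 in each case for months 2, 9 and 12. The interaction gave 1 to 16, changes over months 63 to 73 in irradiated and 65 to 69 in control livers, month 2 over 1 in control livers 1 to 17 and in irradiated livers 0. Month 9 over 4 gave 0 to 6 in irradiated and 0 in control livers, and month 12 over 9 gave 0 to 12 in irradiated and 16 to 33 in control livers.

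The median log2 fold change over the members stayed negative under all alternatives at months 1, 2 and 4. Month 1 gave medians between -0.31 and -0.06, month 2 between -0.31 and -0.17, and month 4 between -0.41 and -0.19. The range was -0.17 to 0.02 for month 9 and -0.11 to 0.10 for month 12, so no direction is given there. With upper quartile factors the median of all genes at month 12 over 9 in irradiated livers was 0.13. Members with few counts, such as Mrps36 and Mrps6, allow less precision. The SE come from a spread estimated over all groups, so they do not measure the spread of the 3 livers of a single group.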

Other observations

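Among 9 regulators of mitochondrial gene programmes, Gabpa, the DNA-binding ETS subunit of the factor whose core was searched in the promoters, was lower in irradiated livers at month 1, with 38.5 CPM in irradiated and 56.3 CPM in control livers on average (log2 fold change -0.55, edgeR adjusted p = 0.00719). Its means at month 4 were 80.1 CPM in irradiated and 89.6 CPM in control livers, with no call. Esrra, a nuclear receptor that acts on genes of oxidative metabolism, was lower at month 9, with 18.3 CPM in irradiated and 31.5 CPM in control livers (-0.79, adjusted p = 0.0117). Nrf1 had 17.4 CPM in irradiated and 16.6 CPM in control livers at month 4, and Yy1 had 105.3 CPM in irradiated and 104.5 CPM in control livers, with 0 of the 9 called at that month. The coactivators Ppargc1a and Ppargc1b had 11.9 and 11.6 CPM in irradiated livers, against 9.14 and 7.11 CPM in control livers. Myc had 1.98 CPM in irradiated and 2.17 CPM in control livers, Polrmt 29.6 CPM in irradiated and 25.2 CPM in control livers, and Tfam 52.1 CPM in irradiated and 64.3 CPM in control livers.

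Of the genes that keep and transcribe mitochondrial DNA, 9 were tested. Lrpprc, which stabilises mitochondrial mRNAs, was lower at month 1, with 155.1 CPM in irradiated and 228.3 CPM in control livers (-0.56, adjusted p = 0.00772). Tefm, the elongation factor of the mitochondrial polymerase, was lower at month 4, with 10.3 CPM in irradiated and 15.9 CPM in control livers (-0.62, adjusted p = 0.0410). Tfam, which packages mitochondrial DNA, was lower at month 12 than at month 9 in control livers, with 39.0 CPM at month 12 and 60.3 CPM at month 9 (-0.63, adjusted p = 0.00207).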
